A study of Mus musculus with 10 samples.

Results

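The 9 genes described here belong to the transforming growth factor beta (TGF-beta) system: the ligands Tgfb1, Tgfb2 and Tgfb3, the receptors Tgfbr1 and Tgfbr2, the latency proteins Ltbp1 and Ltbp2, the induced matrix protein Tgfbi and the inhibitor Smad7. They were picked by gene symbol, with 1 probe set each, from 19505 named genes, and all 9 passed the filter on low values that left 13653 genes. Whole back skin of C57BL/6J mice, aged 9 weeks at the start, was profiled on 10 arrays. Expanded skin (4 arrays) lay over a silicone expander that had been enlarged by PBS injections, non-expanded skin (4 arrays) lay over an expander that received no PBS, and both arms had 1 array at each of days 0, 7, 14 and 21 after full injection. Skin without surgery had 1 array in anagen, the growth stage of the hair cycle, and 1 in telogen, the resting stage. The 8 expander arrays therefore share the implant and its surgery, and the labels leave unsaid how many animals each array represents.

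TGF-beta ligands are secreted in a latent form, folded inside a propeptide that latent TGF-beta binding proteins anchor to the extracellular matrix, and integrins and proteases release them. Released ligand binds the type II receptor, which joins and activates the type I receptor, and this phosphorylates Smad2 and Smad3. In skin the pathway is known for driving matrix production by fibroblasts, for holding back keratinocyte division and for its part in wound repair and in the regression of hair follicles.

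All levels are taken as log2 signals on the deposited scale, on which a difference of 1 would be a 2-fold change. The levels of different genes are not set against each other, since probe sets differ in brightness. Array medians lay between 6.27 and 6.45, and the 23 background probe sets had a median of 5.46. Markers of keratinocytes (array means 13.45 to 16.25) and fibroblasts (15.12 to 17.62) lay far above this background on every array, as the labelled tissue would have, and so did markers of skeletal muscle (14.10 to 17.34). Hair shaft and inner root sheath markers averaged 12.51 on the expanded array of day 7, against 4.63 to 8.004 on the other 7 expander arrays, and 16.70 in anagen, against 6.59 in telogen.

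Promoter windows of 3 of the genes are shown because Tgfb1 and Tgfbr2 differed most from skin without surgery in non-expanded skin, and Tgfb2 had the widest range over the days in expanded skin. The windows run from 250 bases before to 50 bases after an annotated start, from RefSeq on GRCm38.p6. Capitals mark GGGCGG or CCGCCC, the GC box, and CAGAC or GTCTG, the core Smad box. The Tgfb1 window is chr7:25686752-25687051 on the plus strand, the Tgfbr2 window chr9:116175314-116175613 on the minus strand and the Tgfb2 window chr1:186705940-186706239 on the minus strand. The Tgfb2 window lies within the gene's span (186622787 to 186709697), so it marks a start downstream of the gene's outer end.
Tgfb1: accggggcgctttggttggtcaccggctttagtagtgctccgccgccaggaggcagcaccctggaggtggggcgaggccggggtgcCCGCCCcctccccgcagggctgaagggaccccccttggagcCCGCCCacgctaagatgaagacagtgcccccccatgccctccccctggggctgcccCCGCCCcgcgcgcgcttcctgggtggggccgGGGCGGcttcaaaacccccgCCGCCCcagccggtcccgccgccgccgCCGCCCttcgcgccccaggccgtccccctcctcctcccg
Tgfbr2: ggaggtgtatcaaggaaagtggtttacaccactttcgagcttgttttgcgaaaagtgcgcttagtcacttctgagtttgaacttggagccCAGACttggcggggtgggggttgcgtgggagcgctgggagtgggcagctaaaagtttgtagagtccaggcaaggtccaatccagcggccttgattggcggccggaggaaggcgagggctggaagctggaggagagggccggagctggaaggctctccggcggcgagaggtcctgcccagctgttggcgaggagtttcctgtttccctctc
Tgfb2: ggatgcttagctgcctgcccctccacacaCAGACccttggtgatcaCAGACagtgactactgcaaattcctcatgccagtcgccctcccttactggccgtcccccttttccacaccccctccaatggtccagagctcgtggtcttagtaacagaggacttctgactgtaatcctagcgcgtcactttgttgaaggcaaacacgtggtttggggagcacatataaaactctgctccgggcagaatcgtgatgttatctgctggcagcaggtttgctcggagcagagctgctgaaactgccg

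The Tgfb1 window held 6 GC boxes and no core Smad box, the Tgfbr2 window no GC box and 1 core Smad box, and the Tgfb2 window no GC box, 2 core Smad boxes and 1 TATA box (TATAAA or its reverse TTTATA). Among all 32851 windows of the same length, 35.7% held a GC box, 49.6% a core Smad box and 13.6% a TATA box on either strand. A match describes letters in the window and is no evidence of binding. Of the 9 genes, 7 had a window in the table, and none of their 9 windows held the AP-1 letters TGANTCA, which 7.81% of all windows hold.

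Expansion was first compared with the unfilled expander, day by day. None of the 9 genes passed an adjusted p of 0.05 (limma with the day as a block), and neither did any other gene (0% of 13653). At an unadjusted p under 0.05, 1 of the 9 genes passed, where 8.8% of all genes did. It was higher in expanded skin, as 4.83% of all genes were, and 0 of the 9 were lower, as 3.98% were. That gene was Tgfb3, and it was also the 1 gene of the 9 whose arrays did not overlap between the arms, a pattern that 2.97% of all genes had with expanded skin higher and 1.87% with expanded skin lower. The median difference of the 9 genes was 0.04, against 0.02 over all genes tested.

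Tgfb3, the ligand isoform needed for closure of the mouse palate and studied in scarring, lies on chromosome 12 (86056743 to 86079041, GRCm38). It measured 11.03, 10.51, 10.37 and 10.21 in expanded skin at days 0, 7, 14 and 21, and 9.51, 9.93, 9.78 and 8.51 in non-expanded skin. Every expanded array lay above every non-expanded array, and the gap was widest at days 0 and 21. The expanded mean of Tgfb3 was 10.53 ± 0.36 and the non-expanded mean 9.43 ± 0.64 (SD over 4 arrays in each arm), a log2 difference of 1.10 ± 0.29 (SE) or 2.14-fold, with limma adjusted p = 0.375. Its single-day differences were 1.52, 0.58, 0.59 and 1.70, so Tgfb3 was higher on 4 of 4 days, as 9.18% of all genes were. With the skeletal muscle markers as a covariate the difference was 1.73, more than 1.5 times as large, with adjusted p = 0.957. Over the mean of the days, keratinocyte markers were higher in expanded skin in 6 of 6 cases, with a median difference of 0.62. Their median single-day differences were -0.19, 1.30, 0.70 and 1.04, with 2 of 6 higher at day 0. Those of fibroblast markers were 1.02, -1.10, 0.05 and 0.48, and those of skeletal muscle markers 0.01, -2.17, -2.49 and -0.67. The part of any of these cell types in the Tgfb3 difference was not tested.

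Tgfb1, the ligand isoform best known from platelets, macrophages and fibrosis, lies on chromosome 7 (25687002 to 25705077). It measured 13.53, 13.35, 12.44 and 11.97 in expanded skin at days 0, 7, 14 and 21, and 13.65, 13.63, 12.59 and 13.12 in non-expanded skin. The arms overlapped, and expanded skin lay lower on 4 of 4 days, as 8.1% of all genes did. The expanded mean of Tgfb1 was 12.82 ± 0.74 and the non-expanded mean 13.25 ± 0.50 (SD over 4 arrays in each arm), a difference of -0.42 ± 0.26 with limma adjusted p = 0.687. Most of it came from day 21, where the 2 arrays differed by -1.14. Without that day the difference was -0.18.

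Tgfb2, the third ligand, which binds its receptors with the help of the co-receptor Tgfbr3, lies on chromosome 1 (186622787 to 186709697). It measured 10.61, 9.42, 10.75 and 11.04 in expanded skin at days 0, 7, 14 and 21, and 9.74, 11.21, 11.27 and 11.53 in non-expanded skin. Expanded skin lay higher at day 0 and lower on the 3 later days, with single-day differences of 0.87, -1.79, -0.52 and -0.49. The mean difference was -0.48 ± 0.42 (limma adjusted p = 0.76), and it turned to 0.50 with the skeletal muscle markers as a covariate. At day 7 the Tgfb2 array of expanded skin was the lowest of the 8 expander arrays, and it is the array with the hair genes. On that array fibroblast markers were lower than in non-expanded skin in 7 of 7 cases and endothelial markers in 6 of 6. In whole skin, fewer cells of a type and less RNA per cell cannot be told apart.

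**Figure D1:**
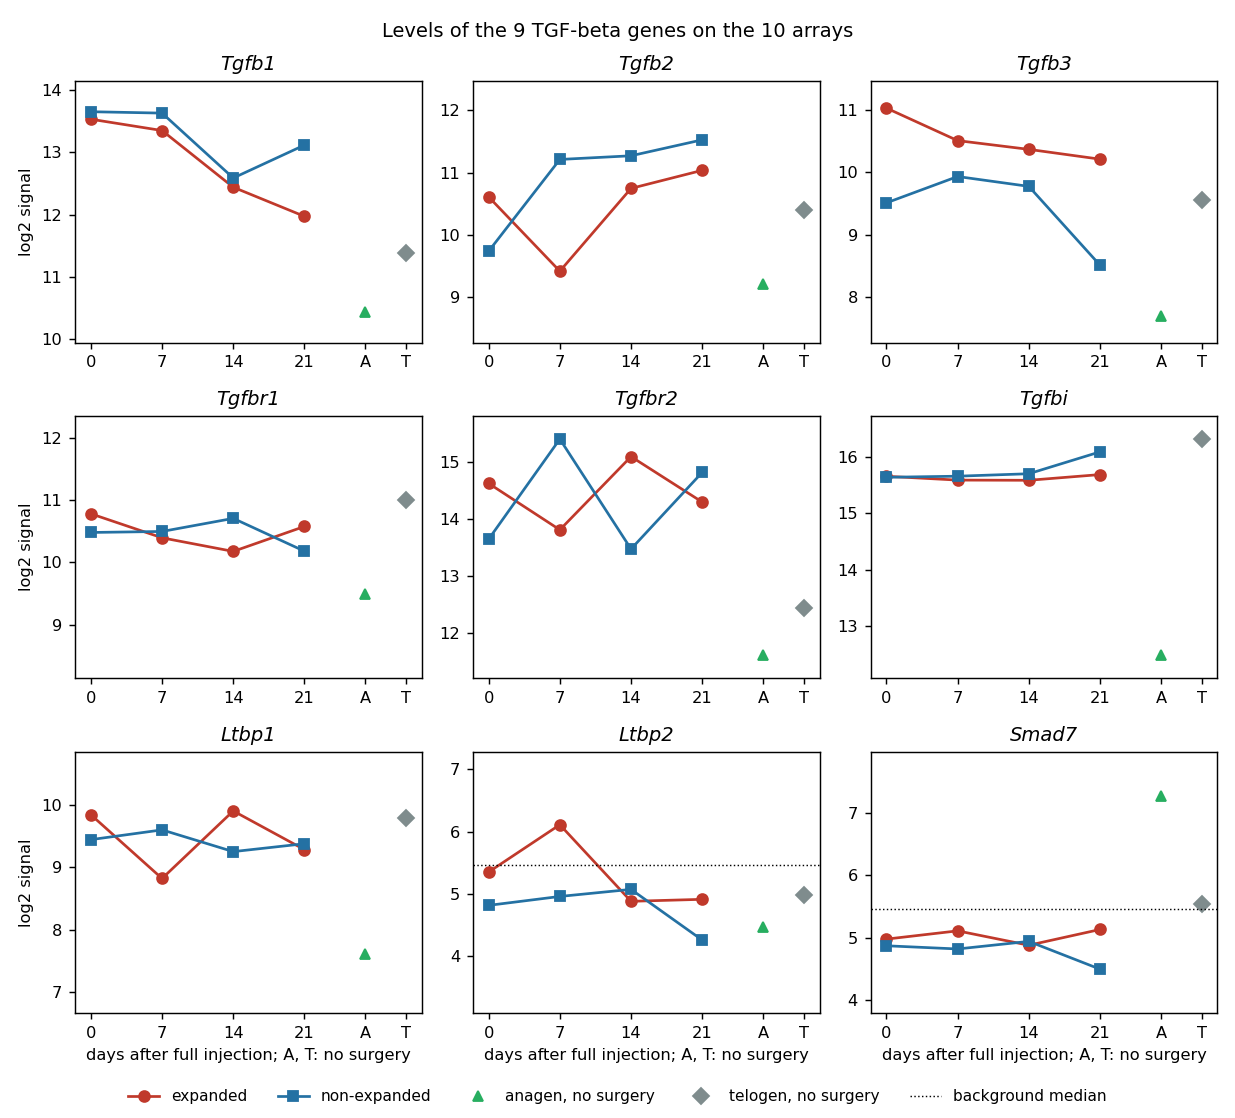
Level of each of the 9 genes (log2 signal) on each array, with days after full injection on the x axis, expanded skin in red, non-expanded skin in blue, and the no-surgery arrays in anagen (A) and telogen (T) on the right. Each point is 1 array, the y axes span similar ranges around different centres, and the dotted line in the Ltbp2 and Smad7 panels is the background median of 5.46; Tgfb3 is the panel in which the expanded line stays above the non-expanded line throughout.

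Among the receptors, Tgfbr2, the type II receptor that binds ligand first, lies on chromosome 9 (116087695 to 116175363). It measured 14.62, 13.80, 15.09 and 14.29 in expanded skin at days 0, 7, 14 and 21, and 13.64, 15.40, 13.47 and 14.81 in non-expanded skin. The order of the arms switched at each time point. Single-day differences were 0.98, -1.59, 1.62 and -0.52, and the mean difference of 0.12 ± 0.53 (limma adjusted p = 0.963) was smaller than the spread between days. Macrophage markers switched with them: they were higher in expanded skin in 6 of 8 cases at day 0, 0 of 8 at day 7, 8 of 8 at day 14 and 0 of 8 at day 21. Median fibroblast marker differences were 1.02, -1.10, 0.05 and 0.48 on the same days. The part of these cells in the Tgfbr2 values was not tested.

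Tgfbr1, the type I receptor that phosphorylates Smad2 and Smad3, lies on chromosome 4 (47353222 to 47414926). It measured 10.78, 10.39, 10.17 and 10.57 in expanded skin at days 0, 7, 14 and 21, and 10.48, 10.49, 10.70 and 10.18 in non-expanded skin. The arms overlapped, and the expanded mean of 10.48 ± 0.26 and the non-expanded mean of 10.46 ± 0.22 (SD over 4 arrays in each arm) differed by 0.02 ± 0.25, with single-day differences between -0.53 and 0.40.

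Of the latency proteins, Ltbp1, which binds the latent ligand covalently and ties it to the matrix, lies on chromosome 17 (75005480 to 75392512). It measured 9.84, 8.82, 9.91 and 9.28 in expanded skin at days 0, 7, 14 and 21, and 9.45, 9.60, 9.25 and 9.38 in non-expanded skin. The expanded arrays spread over 1.08 and the non-expanded arrays over 0.35, and the mean difference was 0.04 ± 0.29. Ltbp2, a relative that binds fibrillin fibres and not latent TGF-beta, lies on chromosome 12 (84783212 to 84876558). It was above the background median on 1 array only, expanded skin at day 7, where it read 6.11. The other expanded arrays read 5.35, 4.88 and 4.91 at days 0, 14 and 21, and the non-expanded arrays 4.82, 4.96, 5.07 and 4.26 at days 0, 7, 14 and 21. No fold is given for Ltbp2, since both arms lay mostly at background, and its difference of 0.54 ± 0.28 had limma adjusted p = 0.633. Without surgery it read 4.47 in anagen and 4.98 in telogen.

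Tgfbi, a secreted matrix protein named for its induction by TGF-beta, lies on chromosome 13 (56609586 to 56639359). It varied least of the 9 genes in expanded skin, with 15.66, 15.59, 15.58 and 15.69 at days 0, 7, 14 and 21, a span of 0.10. Non-expanded skin measured 15.64, 15.66, 15.70 and 16.09. The expanded mean of 15.63 ± 0.05 and the non-expanded mean of 15.77 ± 0.21 (SD over 4 arrays in each arm) differed by -0.14 ± 0.21, with limma adjusted p = 0.866.

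Smad7, an inhibitory Smad that blocks the type I receptor and is itself a target of the pathway, lies on chromosome 18 (75367365 to 75395935). Its 4 expanded arrays read 4.98, 5.11, 4.88 and 5.13 and its 4 non-expanded arrays 4.87, 4.82, 4.94 and 4.497 at days 0, 7, 14 and 21. All 8 lay below the background median of 5.46, so the difference of 0.24 ± 0.23 (limma adjusted p = 0.773) cannot be read as a change in its RNA.

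**Figure D2:**
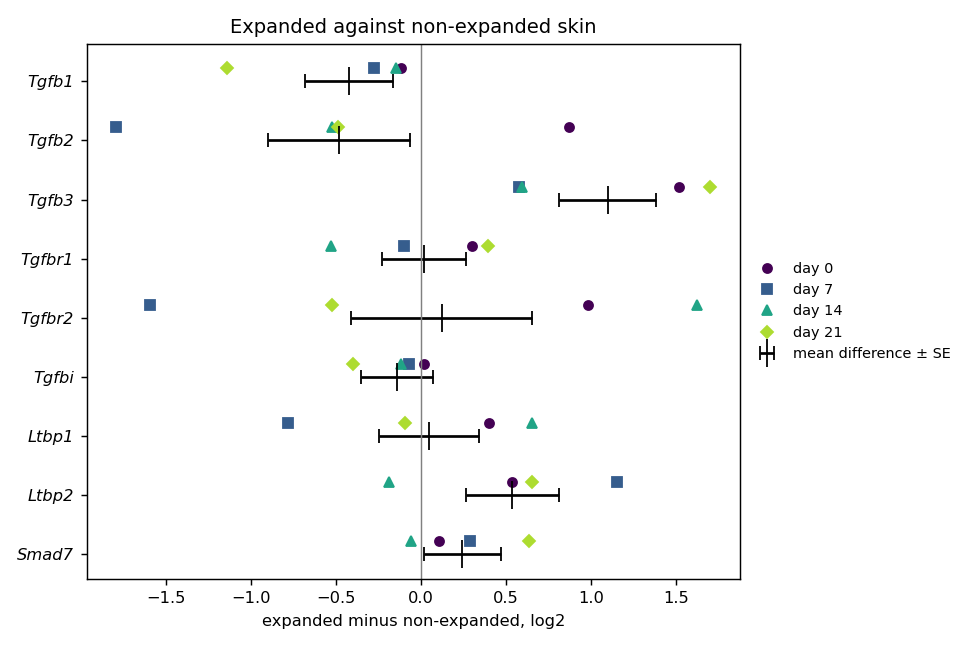
Log2 difference of expanded minus non-expanded skin for each gene: the black tick is the mean over the 4 days with its standard error from limma, and the coloured symbols above it are the single days (1 array a side). The 4 days of Tgfb3 all lie above 0, between 0.58 and 1.70, and those of Tgfbr2 lie on both sides, between -1.59 and 1.62.

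Expander skin was next compared with skin that had no surgery, which asks how far implant and surgery alone went with a change. Both comparisons use the same 2 arrays without surgery, so their values are given side by side and not counted as separate support. None of the 9 genes passed an adjusted p of 0.05 for expanded skin, where 0.476% of all genes did, or for non-expanded skin, where 0% did (limma, all 10 arrays in 3 groups). Of all genes 0.0293% were lower in expanded skin at that threshold. The difference was above 0 for 8 of the 9 genes in expanded skin, as for 50.6% of all genes, and for 8 of 9 in non-expanded skin, as for 50.7%. These counts leaned on the anagen array, against which only Smad7 lay below 0, in both arms. Against telogen alone Tgfbr1, Tgfbi, Ltbp1 and Smad7 lay below 0 in both arms, and Tgfb3 and Ltbp2 did so in non-expanded skin. At an unadjusted p under 0.05, 4 of the 9 genes passed in expanded skin, where 16.4% of all genes did, and 3 of the 9 in non-expanded skin, where 15.7% did. Of these, 3 were higher in expanded skin than without surgery (Tgfb1, Tgfb3 and Tgfbr2), where 10.7% of all genes were, and 1 was lower (Smad7), where 5.69% were. In non-expanded skin 2 were higher (Tgfb1 and Tgfbr2), where 9.42% of all genes were, and 1 was lower (Smad7), where 6.28% were. With 1 no-surgery array left out, the other has no spread of its own, so only differences are given for that comparison. Against anagen alone the expanded mean differed by 2.39 for Tgfb1, 2.83 for Tgfb3 and 2.85 for Tgfbr2. For Tgfbi, Ltbp1 and Smad7 it differed by 3.15, 1.85 and -2.26. Against telogen alone the differences of these genes, in the same order, were 1.43, 0.97, 2.02, -0.69, -0.34 and -0.51.

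Tgfb1 read 10.44 in anagen and 11.39 in telogen, below each of the 8 expander arrays. Its difference from the mean of these was 1.91 ± 0.51 in expanded skin (3.76-fold, limma adjusted p = 0.106) and 2.33 ± 0.51 in non-expanded skin (5.04-fold, adjusted p = 0.0844). Against telogen alone the differences were 1.43 in expanded and 1.86 in non-expanded skin. Expanded arrays lay above both no-surgery arrays for 14% of all genes and non-expanded arrays for 11.5%. Macrophage markers, 8 of the 9 on the list being measured here, averaged 11.78 to 13.55 in expanded skin and 11.65 to 14.34 in non-expanded skin, against 9.16 in anagen and 10.50 in telogen. None of the 8 had a mean below the background median. Over the 10 arrays their mean and Tgfb1 had a Pearson correlation of 0.918, and over the 8 expander arrays 0.693, points that share their arrays and normalization. The part of macrophages in the Tgfb1 levels was not tested.

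Tgfbr2 read 11.60 in anagen and 12.43 in telogen, also below each of the 8 expander arrays. It differed by 2.44 ± 0.57 in expanded skin (5.41-fold, limma adjusted p = 0.081) and by 2.31 ± 0.57 in non-expanded skin (4.97-fold, adjusted p = 0.108). Against telogen alone the differences were 2.02 in expanded and 1.90 in non-expanded skin. Fibroblast markers (7 of 8 measured here) averaged 16.64 to 17.24 in expanded skin and 16.32 to 17.62 in non-expanded skin, against 15.12 in anagen and 16.60 in telogen. The correlation of their mean with Tgfbr2 was 0.860 over the 10 arrays and 0.732 over the 8 expander arrays, and that of macrophage markers with Tgfbr2 was 0.906 and 0.655.

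Tgfb3 read 7.70 in anagen and 9.56 in telogen. All 4 expanded arrays lay above both, whereas the non-expanded arrays overlapped them. Tgfb3 differed by 1.90 ± 0.54 in expanded skin (3.73-fold, limma adjusted p = 0.124) and by 0.80 ± 0.54 in non-expanded skin (adjusted p = 0.509). Against telogen alone the difference was 0.97 in expanded skin and -0.13 in non-expanded skin. The order of the means for Tgfb3 was thus expanded, then non-expanded and telogen close together, then anagen.

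Smad7 read 7.28 in anagen and 5.54 in telogen, against 4.497 to 5.13 on the 8 expander arrays. The anagen value stood 1.82 above the background median and the telogen value near it. The differences of -1.38 ± 0.41 in expanded skin (limma adjusted p = 0.139) and -1.63 ± 0.41 in non-expanded skin (adjusted p = 0.115) come with no fold, because the expander arrays lay at background. Against telogen alone they were -0.51 in expanded and -0.75 in non-expanded skin. Expanded arrays lay below both no-surgery arrays for 8.59% of all genes and non-expanded arrays for 7.21%.

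For Tgfbi, Ltbp1 and Tgfbr1 the direction depended on which no-surgery array was used, in both arms. In non-expanded skin it did so too for Tgfb3 (-0.13 from telogen and 1.73 from anagen) and for Ltbp2, near background (-0.21 and 0.31). The expanded mean of Tgfbi lay 0.69 below telogen and 3.15 above anagen, and its non-expanded mean 0.55 below telogen and 3.29 above anagen. Ltbp1 in expanded skin differed by -0.34 from telogen and by 1.85 from anagen, and Tgfbr1 by -0.52 and 0.99. Tgfb2 read 9.21 in anagen and 10.39 in telogen. It differed from the mean of both by 0.65 ± 0.60 in expanded and by 1.13 ± 0.60 in non-expanded skin, with limma adjusted p = 0.65 and 0.384. Against telogen alone the difference was 0.06 in expanded and 0.54 in non-expanded skin, and against anagen alone 1.24 and 1.72. The Tgfb2 arrays overlapped those without surgery in both arms.

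**Figure D3:**
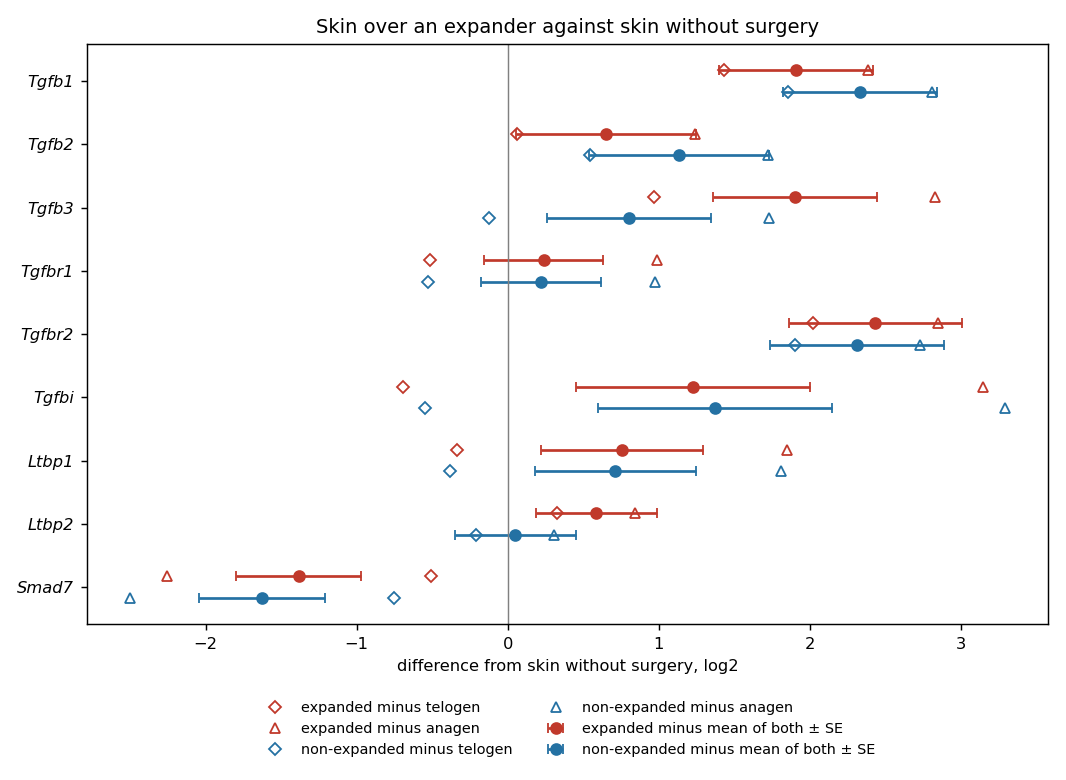
Log2 difference from skin without surgery for the expanded (red) and non-expanded (blue) means of 4 arrays each: filled points with standard error are against the mean of both no-surgery arrays, open diamonds against telogen and open triangles against anagen. Tgfb1, Tgfb2 and Tgfbr2 lie right of 0 against either array, Tgfb2 by only 0.06 for expanded skin against telogen. Tgfbi, Ltbp1 and Tgfbr1 lie on both sides in both arms, and Tgfb3 and Ltbp2 do so in non-expanded skin.

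**Figure D4:**
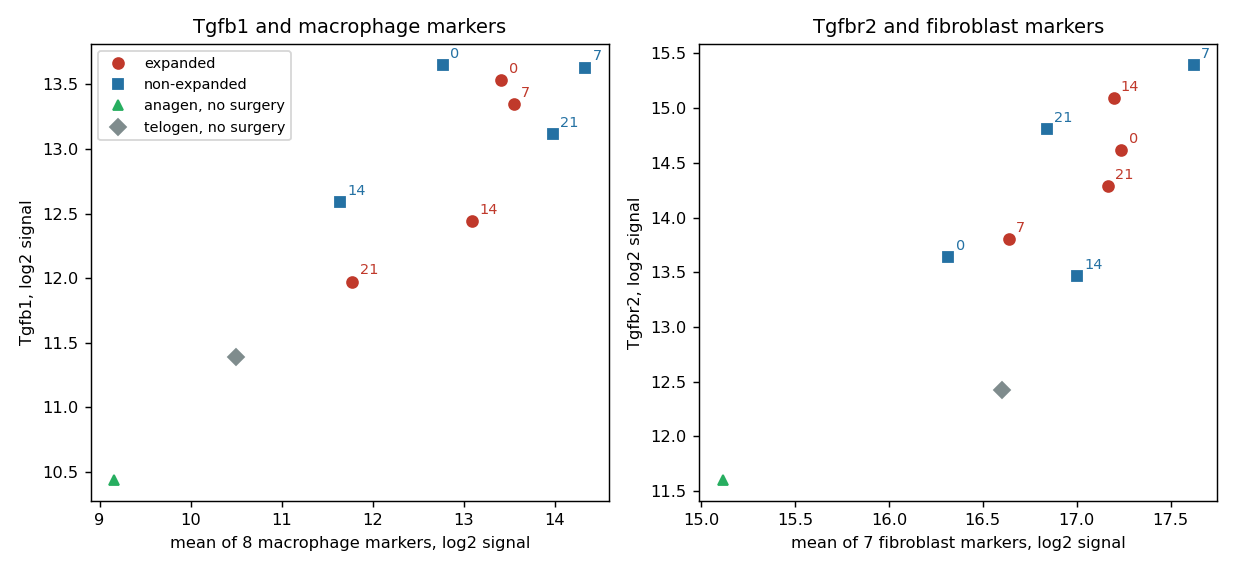
Tgfb1 against the mean of 8 macrophage markers (left) and Tgfbr2 against the mean of 7 fibroblast markers (right), log2 signals, 1 point per array with the day written beside the expander arrays. The anagen array lies lowest in both panels, and the highest Tgfbr2 point is non-expanded skin of day 7 at 15.40, which also has the highest fibroblast mean at 17.62.

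Anagen and telogen skin differed widely for these genes, with 1 array a side and so no test. Anagen was at least 2-fold lower for 5 of the 9 genes, where 20.4% of all genes were at least 2-fold lower. The 5 were Tgfbi (-3.84), Ltbp1 (-2.19), Tgfb3 (-1.86), Tgfbr1 (-1.50) and Tgfb2 (-1.18). Tgfbi read 12.48 in anagen, against 16.32 in telogen, and Ltbp1 7.61 in anagen, against 9.80 in telogen. Tgfbr1 read 9.49 in anagen, against 10.99 in telogen. Smad7 was the 1 gene that was at least 2-fold higher in anagen (1.74), where 23.5% of all genes were. Fibroblast, macrophage and skeletal muscle markers averaged 15.12, 9.16 and 14.37 in anagen, against 16.60, 10.50 and 17.34 in telogen, and their part in these differences was not tested.

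Lines over the days asked whether the genes drifted after full injection. In neither arm did any gene reach the adjusted threshold, and the lines of the arms did not differ for any gene at it (0% of all genes in each case, limma). Tgfb1 was lower on each later expanded array, with a fitted change of -1.68 ± 0.51 over 21 days and an unadjusted limma p of 0.0116 (adjusted p = 0.9997). It was the 1 of the 9 genes at an unadjusted p under 0.05 in expanded skin, where 2.48% of all genes passed, 1.18% higher and 1.3% lower. In non-expanded skin 0 of the 9 passed, where 3.63% of all genes did (1.98% higher and 1.64% lower). For the difference between the arms 0 of the 9 passed too, where 1.22% did (0.542% higher and 0.674% lower). The fitted change was above 0 for 4 of the 9 genes in expanded skin and 3 of 9 in non-expanded skin, and the difference between the arms for 2 of 9, against 50.8%, 50.3% and 50.4% of all genes. In non-expanded skin the Tgfb1 line changed by -0.79 ± 0.51, and the difference between the lines was -0.88 ± 0.71 (adjusted p = 0.9995). Without day 21 the non-expanded change was -1.60 and the difference -0.04. The Tgfb2 line changed by 0.78 ± 0.73 in expanded skin and by 1.63 ± 0.73 in non-expanded skin, where day 0 was the low array. Without day 0 these were 2.43 in expanded and 0.47 in non-expanded skin, and without day 21 they were 0.20 and 2.30. The Tgfb3 lines changed by -0.78 ± 0.57 in expanded and -0.95 ± 0.57 in non-expanded skin. Without day 0 they were -0.45 and -2.13, and without day 21 they were -0.99 in expanded and 0.40 in non-expanded skin. The macrophage mean in expanded skin was 13.41, 13.55, 13.10 and 11.78 at days 0, 7, 14 and 21, lowest on the day when Tgfb1 was lowest. Within expanded skin 5 of the 9 genes spanned at least 1 over the days, as 30.4% of all genes did, and within non-expanded skin 4 of the 9, as 46.2% did.

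The other genes of the pathway were taken from lists grouped by role, with 53 genes measured. In the comparison of expanded with non-expanded skin 0 of them passed limma's adjusted threshold. At an unadjusted p under 0.05, 3 of 17 latency and activation genes, 1 of 6 signal transducers, 2 of 10 inhibitors and 6 of 17 target genes were higher and 0 were lower, where 4.83% of all genes were higher and 3.98% lower. The direction counts that follow for the mean over the days stand against 52.5% of all genes above 0. Among genes of latency, storage and activation 12 of 17 were higher in expanded skin, with a median of 0.33 against 0.02 over all genes. Thbs1, a matrix protein that can release latent TGF-beta, differed by 3.01 ± 0.34, the integrin chain gene Itgb5 by 0.91 ± 0.29 and the latency protein gene Ltbp3 by 1.01 ± 0.35 (limma adjusted p = 0.221, 0.467 and 0.512). Among inhibitors and feedback genes 8 of 10 were higher, with a median of 0.42. Skil, a repressor of Smad target genes, differed by 1.19 ± 0.27 and Pmepa1, an induced inhibitor of Smad signalling, by 1.12 ± 0.29 (adjusted p = 0.348 and 0.37). Of the signal transducers 5 of 6 were higher (median 0.36), and of the co-receptors 2 of 3 (median 0.13). Of the target genes 12 of 17 were higher (median 0.47), with Ccn2 at 2.84 ± 0.49 and Lox at 1.65 ± 0.30 (adjusted p = 0.288 and 0.303). Day 7 ran against the means of some lists only. There 8 of 17 target genes (median -0.41), 4 of 17 latency and activation genes (median -0.38) and 0 of 3 co-receptors (median -1.65) were higher. By 2-fold or more, 7 target genes were lower and 4 higher. Inhibitors kept their direction, with 7 of 10 higher (median 0.23), and signal transducers had 3 of 6 higher (median 0.08). Among the genes just named Ltbp3 was slightly lower (-0.04). Thbs1 (2.25), Itgb5 (0.38), Skil (0.96), Pmepa1 (0.29), Ccn2 (2.42) and Lox (0.76) were higher. On the same day 0 of 7 fibroblast markers, 0 of 6 endothelial markers and 0 of 8 macrophage markers were higher in expanded skin, and their part was not tested. The fibroblast list shares Col1a1, Col1a2 and Col3a1 with the target genes and Dcn with the inhibitors, so these counts are not independent.

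Against skin without surgery 4 of these 53 genes were called, all higher in expanded skin. They were 1 of 17 latency and activation genes and 3 of 17 target genes, where 0.447% of all genes were called higher. Thbs1 in expanded skin stood at 14.73, 14.14, 14.02 and 13.94 on days 0, 7, 14 and 21, against 9.52 in anagen and 6.99 in telogen, and rose by 5.95 ± 0.76 (limma adjusted p = 0.0162). Lox, which cross-links collagen, read 17.47, 16.96, 17.65 and 16.91 in expanded skin, against 12.26 in anagen and 13.23 in telogen, and rose by 4.51 ± 0.43 (adjusted p = 0.00635). Ccn2, a matrix protein induced by TGF-beta and by mechanical load, rose by 5.17 ± 0.66 (adjusted p = 0.0162), and the transcription factor gene Bhlhe40 by 2.21 ± 0.31 (adjusted p = 0.0253). The Thbs1, Ccn2 and Bhlhe40 calls ended when only expanded and no-surgery arrays were fitted (adjusted p = 0.0541, 0.0631 and 0.0631), whereas that of Lox stayed (0.0384). Leaving out expanded day 0 ended the calls of Thbs1 (0.0601) and Bhlhe40 (0.0773), leaving out expanded day 14 those of Thbs1 and Ccn2 (both 0.0654) and Bhlhe40 (0.0832), and leaving out anagen those of Ccn2 (0.0525) and Bhlhe40 (0.0552).

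In non-expanded skin 15 of 17 target genes lay above skin without surgery, with a median of 0.81 against 0.01 over all genes, and 0 passed limma's adjusted threshold, with 7 at an unadjusted p under 0.05, where 50.7% of all genes lay above 0 and 9.42% were higher at that p. Fibroblast markers were higher too in 7 of 7 cases (median 0.82), macrophage markers in 8 of 8 (median 3.43) and endothelial markers in 6 of 6 (median 1.33). By array, fibroblast means (16.32 to 17.62) lay on both sides of telogen (16.60) and above anagen (15.12). Endothelial means (9.18 to 10.59) did likewise (9.38 and 8.06), and macrophage means (11.65 to 14.34) lay above both (10.50 and 9.16). The part of these cell types in the target gene values was not tested. Col1a1, Col1a2 and Col3a1 stand on both the target gene and the fibroblast list, so those counts share genes. Lox differed by 2.86 ± 0.43 and Fn1, which encodes fibronectin, by 3.70 ± 0.74 (limma adjusted p = 0.0646 and 0.0739). With anagen and telogen as separate groups both passed (0.00893 and 0.0238), and so they did without telogen (0.00321 and 0.0213); Lox passed without non-expanded day 14 as well (0.0386). The protease inhibitor gene Timp1 read 11.99, 12.81, 7.02 and 10.08 in non-expanded skin at days 0, 7, 14 and 21, against 3.97 in anagen and 3.46 in telogen. Both no-surgery values lay below the background median, so no size of difference is given for Timp1. The inhibitor Smad6 differed by -1.55 ± 0.56 and was highest in anagen (8.15), as Smad7 was, with -0.36 against telogen and -2.73 against anagen. The co-receptor genes Eng and Tgfbr3 differed by 2.81 ± 0.89 and 1.97 ± 0.63 in expanded skin (adjusted p = 0.154 and 0.159) and by 2.69 ± 0.89 and 1.78 ± 0.63 in non-expanded skin (adjusted p = 0.196 and 0.22). Tgfbr3 turned on the no-surgery array used: in expanded skin it differed by 0.67 from telogen and 3.27 from anagen, and in non-expanded skin by 0.48 and 3.08. With those arrays as separate groups Tgfbr3 passed in expanded skin (0.0248) and in non-expanded skin (0.0296), and without telogen too (0.00424 and 0.00429).

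**Figure D5:**
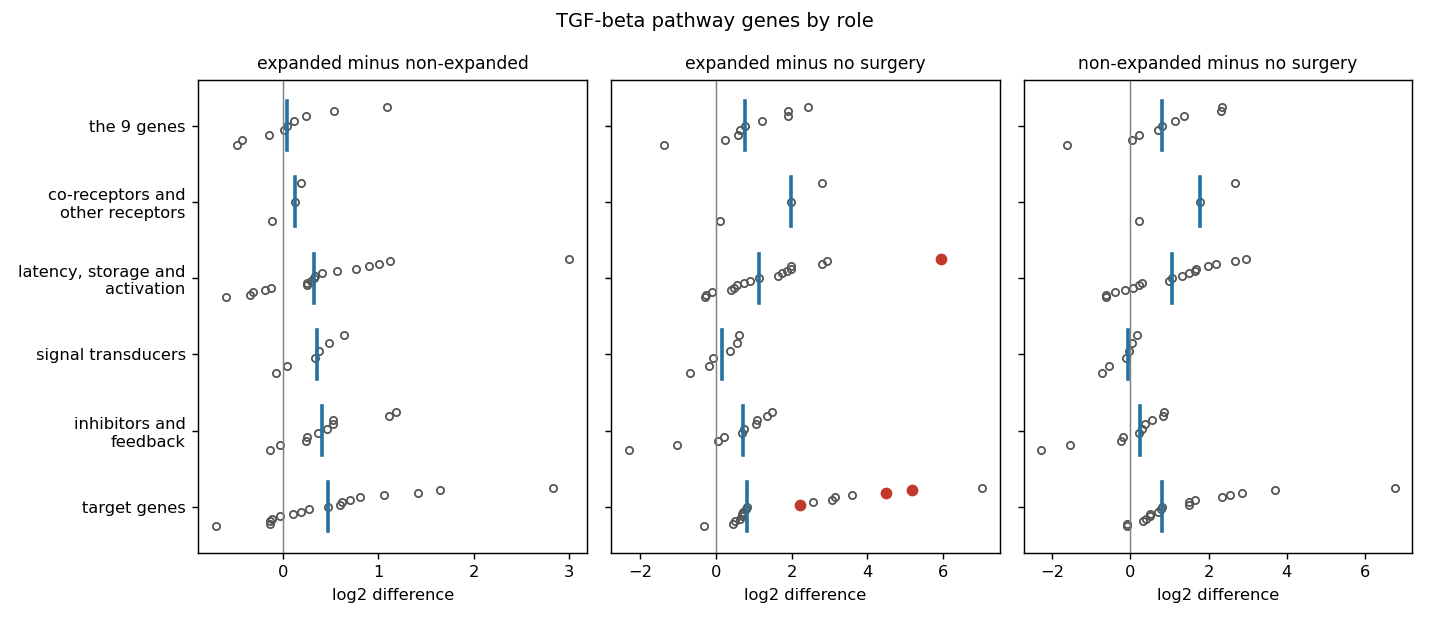
Log2 differences of the 9 genes and of the other pathway genes by role, for expanded minus non-expanded skin, expanded minus no surgery and non-expanded minus no surgery (x axes differ between panels). Each circle is 1 gene, filled red where limma's adjusted p was under 0.05, and the blue bar is the median of the list; the 4 filled circles are Thbs1 and the target genes Lox, Ccn2 and Bhlhe40.

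The genes did not follow 1 common pattern. Over the 36 pairs of the 9 genes the Pearson correlation across the 10 arrays ran from -0.89 to 0.88 with a median of 0.41, and 17 pairs lay above 0.5. Without the anagen array the median was 0.11 and 3 pairs lay above 0.5, so most of the pairs above 0.5 were so only with that array. Tgfb3 and Ltbp2 correlated at 0.73 over the 10 arrays, without anagen and over the 8 expander arrays alike, although Ltbp2 lay mostly at background.

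The genes most like each member over the 10 arrays were described in the same way, out of 13175 compared. Closest to Tgfb1 were Ms4a7 and Cd84, both known from macrophages and other leukocytes, and the complement gene Cfb, at 0.993, 0.990 and 0.987, and without anagen they stood at 0.987, 0.979 and 0.973. Closest to Tgfbr2 were Hsd3b7 (0.977), the mesenchymal filament gene Vim (0.973) and Fn1 (0.971). Closest to Tgfb3 were C1qtnf3 (0.967), Dkk2 (0.953) and Itgb5 (0.949), and closest to Tgfb2 were Enpep (0.945), Pwwp2a (0.930) and Prob1 (0.927). Smad7 ran with the Wnt inhibitor gene Wif1 (0.991), the pigment gene Tyrp1 (0.980) and Tspan6 (0.977), and without anagen these were 0.928, 0.810 and 0.782. For Tgfbi the nearest genes Prkcb, Adh1 and Chl1 stood at 0.975, 0.964 and 0.962, and without anagen at 0.443, 0.713 and 0.638. Ltbp1 was closest to Kcmf1, Cav1 and Calcrl (0.975, 0.971 and 0.962), Tgfbr1 to Crebl2, Ago4 and Nbeal1 (0.963, 0.940 and 0.940) and Ltbp2 to Tnfrsf9, Ogfod2 and Slc5a9 (0.924, 0.867 and 0.865). Smad7 lay below the background median on 8 of the 10 arrays and Ltbp2 on 9, so little can be read from the neighbours of either.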

How the data were processed

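RNA of whole mouse back skin was measured on 10 arrays after labelling with the Affymetrix WT PLUS kit, per the labels' protocols. The deposited values are taken here as log2 signals, 1 per probe set and array. The log base, background correction and normalization are not given in the sources used here, and the base was taken from the range of 1.87 to 19.88. Values over 16, the scanner limit on a log2 scale, were found for 586 probe sets. The range therefore does not settle the base, and the folds given rest on this reading. The submitters' processing notes name mm10. Of 28846 probe sets, 19572 had a gene symbol, naming 19505 genes. The highest-mean probe set was used for 55 genes with several, and genes with a mean under the 30th percentile (4.86) were left out. Differences were fitted over 13653 genes with limma 3.58.1 in R 4.3.3 (lmFit, eBayes), two-sided, with Benjamini-Hochberg adjustment at 0.05, and the code was tested on simulated data. There a simulated log2 change of 1 was called for 0 of 50 genes in the expansion effect. Against no surgery it was called for 0 of 50 in expanded and 3 of 50 in non-expanded skin. For the difference between the lines, a change of 4 was called for 0 of 50. A missing call is thus no evidence of no change.

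The expansion effect had the day as a block, since the labels number the same days in both arms. The pairing rests on the labels: after subtracting each arm's mean, the 2 arrays of a day correlated at -0.133, -0.171, -0.104 and 0.358. The p-values measure only the spread between these arrays, whose number limits the precision. Members, lists and tests were chosen with earlier results of these data known. The named genes are the 9 members, up to 4 pathway genes per list and comparison with the smallest p, and the 3 genes most correlated with each member, without predicted and small RNA genes. Some listed genes, among them Fbn1, Cd68 and Pdgfra, were not analysed here. Alternatives changed the filter, normalization, probe-set rule, variance trend, block, covariates, groups and arrays.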

Additional observations from a re-analysis of the deposited data

Results flagged for a closer look

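In non-expanded skin the Tgfbi array of day 21, at 16.09, stood apart from the other 3 arrays, which lay between 15.64 and 15.70. Its gap to the nearest array, divided by the whole range of the 4, was 0.861, above Dixon's critical value for 4 samples. Each of the 9 genes was tested in both arms, 18 groups in all, and chance gives about 1 such array in 20 groups.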

How the results depend on the processing

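Of 540 tested values of the 9 genes under an alternative, 477 kept their direction and their side of the threshold, 43 turned and 20 passed the threshold that the reported fit did not. All 20 came from leaving out telogen or from treating anagen and telogen as separate groups, where the difference between those arrays no longer counts as spread. Removing the filter, averaging probe sets, a variance trend, separate groups and fitting only the groups compared cannot change the difference of any of the 9 genes. In those alternatives the direction was fixed in advance. With separate groups Tgfb1 (adjusted p = 0.0251), Tgfbr2 (0.0435), Tgfbi (0.0131) and Smad7 (0.00968) passed in non-expanded skin against no surgery. In expanded skin Tgfb3 (0.0331), Tgfbr2 (0.0397), Tgfbi (0.0214) and Smad7 (0.016) did. The number of all genes called then was 851 for non-expanded and 736 for expanded skin. For expanded skin it was 33 without a filter and 6 with only those arrays in the fit, against 65 as reported. Leaving out 1 array gave 0 to 2645 genes for non-expanded and 5 to 1850 for expanded skin, both highest without telogen (112 without non-expanded day 14, and 8, 43 and 5 without expanded days 0, 7 and 14), where the lone anagen array is assumed to vary like the others. For the expansion effect, the fit without the block by day called 2 genes, none of the 9, and leaving out 1 day called 0 to 1 (1 without day 0). The block changed no call of the 9 genes. In the expansion effect, quantile normalization turned Tgfbr1 to -0.038 and Ltbp1 to -0.014, the hair covariate turned Tgfbr1 to -0.015 and the skeletal muscle covariate turned Tgfb2 to 0.50. The cause was not tested.

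Leaving out 1 day or array turned these values, given as lowest to highest log2 difference. Expansion effect: Tgfbr1 -0.11 to 0.20, Tgfbr2 -0.38 to 0.69 and Ltbp1 -0.16 to 0.32. Non-expanded against no surgery: Tgfb3 -0.13 to 1.73, Tgfbr1 -0.53 to 0.97, Tgfbi -0.55 to 3.29, Ltbp1 -0.38 to 1.81 and Ltbp2 -0.21 to 0.31. Expanded against no surgery: Tgfbr1 -0.52 to 0.99, Tgfbi -0.69 to 3.15 and Ltbp1 -0.34 to 1.85. Change over 21 days in expanded skin: Tgfbr1 -0.91 to 0.27, Tgfbr2 -0.18 to 0.73, Tgfbi -0.11 to 0.15, Ltbp1 -0.47 to 0.70 and Smad7 -0.15 to 0.14. In non-expanded skin: Tgfb3 -2.13 to 0.40, Tgfbr1 -0.47 to 0.34, Tgfbr2 -0.88 to 0.97, Ltbp2 -1.05 to 0.38 and Smad7 -0.49 to 0.11. Difference between these changes: Tgfb2 -2.09 to 1.96, Tgfb3 -1.39 to 1.69, Tgfbr1 -1.25 to 0.75, Tgfbr2 -1.15 to 1.61, Ltbp1 -0.37 to 1.03 and Smad7 -0.25 to 0.53. Tgfb3 in the expansion effect stayed between 0.90 and 1.27 when a day was left out, with adjusted p from 0.241 to 0.991 over all its alternatives. The 90 untested values under an alternative moved by less than 1 SD, but those without a filter could not move, so only quantile normalization was a check. Of the other pathway genes, 54 results against no surgery passed under an alternative and not in the reported fit, nearly all with separate groups or without telogen. Signals near background limit what can be read of Smad7, Ltbp2 and, in non-expanded skin, Smad6.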
